A study of Homo sapiens with 3 samples.

Results

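The genes for the neutrophil-attracting chemokines CXCL1, CXCL2, CXCL3, CXCL5 and CXCL8, the chemokine CCL20, the growth factor CSF2 (GM-CSF) and the interleukins IL1A and IL1B were examined in single BxPC-3 cells, an established human cell line from a pancreatic ductal adenocarcinoma. The 9 genes were picked by symbol from 33694 features, and cells were barcodes with at least 6500 unique molecular identifiers (UMIs). Double-positive (DP) cells carried both EGFP and mCherry after cells of each colour had been mixed and held in suspension, where epithelial cells can enter one another (cell-in-cell structures). Single-positive (SP) cells from that mixture carried 1 of the colours, and parental BxPC-3 cells were the control. Each population was 1 library made with the 10x 5' kit, from 1940 double-positive, 1291 single-positive and 2409 parental cells. No test between conditions was therefore possible, and every interval given covers counting error only. Which colour or colours the single-positive library held is not given in the labels, nor whether parental cells had been in suspension or carried a reporter, nor how long the sorted cells were expanded in culture before the libraries were made.

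CXCL1, CXCL2, CXCL3, CXCL5 and CXCL8 share the ELR motif in their proteins and recruit neutrophils through the receptor CXCR2, and CXCL8 also through CXCR1. CCL20 draws CCR6-bearing lymphocytes and dendritic cells, and CSF2 drives the growth and survival of granulocytes and macrophages. IL1A and IL1B act through the same receptor, IL1R1. IL1A is active as a full-length protein held in epithelial cells, whereas IL1B has to be cut, classically by caspase-1. Many of these genes are targets of NF-kB and respond to IL1 itself, and in pancreatic carcinoma the chemokines are known for bringing in neutrophils.

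The 5 neutrophil chemokine genes lie within 358.8 kb of chromosome 4 (GRCh38), from the first base of CXCL8 (73740506) to the last base of CXCL2 (74099293). IL1A and IL1B are neighbours on chromosome 2, 45.2 kb apart, CCL20 is on chromosome 2 and CSF2 on chromosome 5. RefSeq's promoters (GRCh38.p14) were taken from 250 bases before to 50 bases after each start. An NF-kB motif, GGAATTTCC, was found in those of all 5 neutrophil chemokine genes, once in each. It was in 162 of the 35116 promoters (0.461%) searched on both strands. The 30 bases around it, written 5′ to 3′ on the gene's strand with the motif in capitals, are shown because they are the sequence these genes share:
CXCL1: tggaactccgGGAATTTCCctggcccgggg
CXCL2: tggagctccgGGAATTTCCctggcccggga
CXCL3: tggagctccgGGAATTTCCctggcccggcc
CXCL5: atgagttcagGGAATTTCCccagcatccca
CXCL8: tgcaaatcgtGGAATTTCCtctgacataat
They lie at chr4:73869305-73869334 (plus strand), chr4:74099253-74099282 (minus), chr4:74038748-74038777 (minus), chr4:73998748-73998777 (minus) and chr4:73740468-73740497 (plus). The motif begins 78, 77, 78, 90 and 91 bases before the RefSeq start of CXCL1, CXCL2, CXCL3, CXCL5 and CXCL8. GENCODE 29 annotates longer first exons for some of these genes. The stretches of CXCL2 and CXCL5 fall in an annotated 5′ UTR, that of CXCL3 in an exon of a non-coding transcript, and those of CXCL1 and CXCL8 outside every exon of their gene.

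The flanks of the motif follow the families of the genes. Over the 100 bases before the start, CXCL1 and CXCL2 were 94.1% identical, CXCL1 and CXCL3 90% and CXCL2 and CXCL3 89.2%. CXCL5 matched these 3 genes at 50 to 51.3% and CXCL8 at 42.9 to 46.1%. The whole stretch of CXCL1, upstream of every annotated exon of the gene (chr4:73869293-73869392, plus strand), is given as the example:
CXCL1, 100 bases: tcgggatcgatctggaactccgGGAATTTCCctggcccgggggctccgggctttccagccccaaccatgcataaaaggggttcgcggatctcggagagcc
The motif was not found in the windows of CCL20, CSF2, IL1A or IL1B. TGANTCA, the AP-1 motif, was in the windows of CXCL8 and IL1A, against 7.71% of all promoters, and TATAAA in those of CXCL8, CCL20 and 1 of the 2 of IL1A, against 11.5%. The coding sequences of CXCL1, CXCL2 and CXCL3 are 90.7 to 94.4% identical. Of the 60-base words of their whole annotated transcripts, 2.70 to 5.69% occur in another of the 3. Counts of these genes could therefore have been split or lost between them where reads fell in shared stretches, which was not tested.

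Library totals were 62517276 UMIs for DP, 51637677 for SP and 65107147 for parental cells, and 97.7 to 98.0% of them lay in the cells used. Median UMIs per cell were 29963.5 in DP, 38137 in SP and 23290 in parental cells, so a share of cells with a UMI is compared below also after thinning every cell to 6500 UMIs. The median mitochondrial share was 2.08% in DP, 1.30% in SP and 0.947% in parental cells. It was under 0.5% in 120 DP, 281 SP and 767 parental cells. Libraries shared 8 barcodes in all, 1 between DP and SP, 1 between SP and parental and 6 between DP and parental cells. The carcinoma label held in the markers: 9 epithelial markers summed to 8067 counts per 1000000 UMIs (CPM) in DP, 8779 CPM in SP and 8632 CPM in parental cells. The 14 myeloid markers summed to 4.64 CPM in DP, 3.86 in SP and 5.47 in parental cells, mostly CD14. Of these markers 8 were at 0 in DP, 9 in SP and 7 in parental cells, among them PTPRC in every library. Lymphoid, fibroblast and endothelial lists stayed between 0.278 and 2.30 CPM.

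IL1A and IL1B were the most abundant of the 9 genes in every library, and CXCL5 was nearly absent. UMIs mark single 5′ ends, so levels can be compared between genes without scaling by length. IL1A stood at 244 CPM in DP cells (239.9 to 247.7, exact Poisson interval), 252 CPM in SP cells (247.4 to 256.2) and 245 CPM in parental cells (241.4 to 249.1). IL1B reached 213 CPM in DP (209.2 to 216.5), 250.1 CPM in SP (245.8 to 254.5) and 217 CPM in parental cells (213.4 to 220.7). The intervals of IL1A and IL1B overlapped in SP cells only. Together the 2 interleukin genes gave more than any chemokine, with 29.8% and 26.0% of the UMIs of the 9 genes in DP, 29.8% and 29.6% in SP and 28.8% and 25.5% in parental cells.

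Among the neutrophil chemokines CXCL2 was highest. It stood at 129 CPM in DP (125.8 to 131.5), 104 CPM in SP (100.8 to 106.4) and 132 CPM in parental cells (129.4 to 135.1). CXCL1 reached 77.9 CPM in DP (75.8 to 80.2), 88.3 CPM in SP (85.7 to 90.9) and 66.5 CPM in parental cells (64.5 to 68.5). CXCL8, the human chemokine also called interleukin 8, had 53.0 CPM in DP (51.2 to 54.9), 53.4 CPM in SP (51.4 to 55.4) and 70.0 CPM in parental cells (68.0 to 72.1). CXCL1 thus lay above CXCL8 in both sorted libraries, and their intervals overlapped in parental cells.

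CXCL3, a close relative of CXCL1 and CXCL2, gave 34.5 CPM in DP (33.0 to 36.0), 38.9 CPM in SP (37.2 to 40.6) and 43.0 CPM in parental cells (41.4 to 44.7). CXCL5 had 2 UMIs in 1 DP cell, 6 UMIs in 6 SP cells and 4 UMIs in 2 parental cells, which is 0.0327 CPM in DP, 0.119 in SP and 0.0627 in parental cells. In the barcodes with 100 UMIs or fewer, which hold free RNA, no CXCL5 UMI was seen. The other genes of the cluster between CXCL8 and CXCL2 were likewise at a few UMIs or none. CXCL6 had a single UMI, in SP cells, PPBP had 1 UMI in DP, 3 in SP and 4 in parental cells, and PF4 and PF4V1 had 0. Expressed and nearly empty genes alternated along the cluster, with CXCL6 and PF4V1 between CXCL8 and CXCL1, and PF4, PPBP and CXCL5 between CXCL1 and CXCL3.

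CSF2 was measured at 43.6 CPM in DP (41.9 to 45.3), 36.1 CPM in SP (34.5 to 37.8) and 50.4 CPM in parental cells (48.7 to 52.2). CCL20 was the lowest of the detected genes, with 24.6 CPM in DP (23.4 to 25.9), 23.9 CPM in SP (22.6 to 25.3) and 25.7 CPM in parental cells (24.5 to 27.0). The order of CSF2 and CXCL3 was not the same everywhere: CSF2 was above CXCL3 in DP and parental cells, and their intervals overlapped in SP cells. Summed over the 9 genes, the level was 819 CPM in DP, 846 CPM in SP and 850.2 CPM in parental cells.

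**Figure D1:**
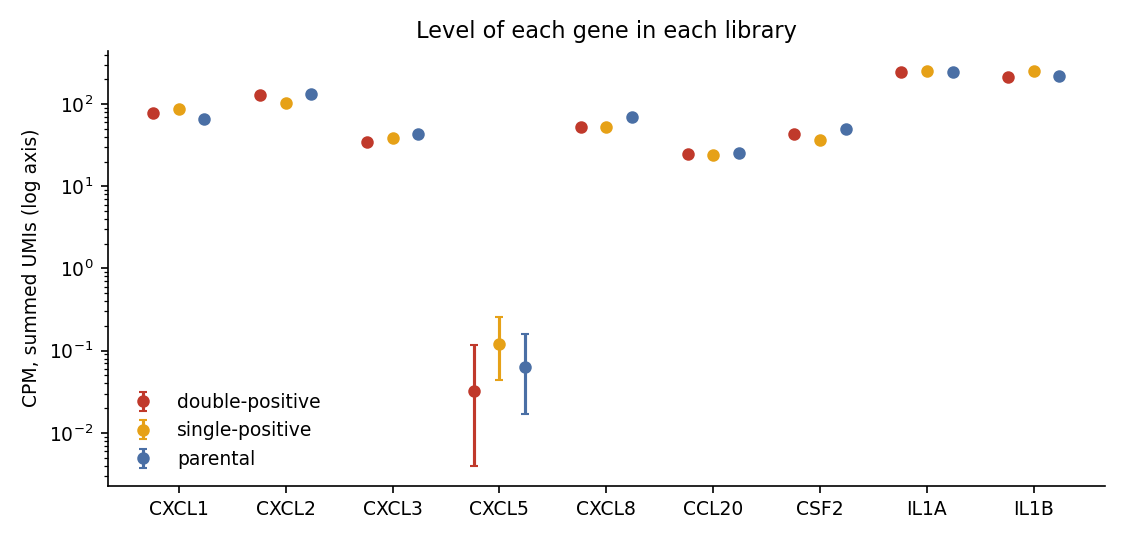
Level of each of the 9 genes (CPM of UMIs summed over cells, log axis) in DP, SP and parental cells, with 95% exact Poisson intervals of counting error that are smaller than the points for all genes but CXCL5. IL1A and IL1B lie above 200 CPM and CXCL5 between 0.0327 and 0.119 CPM in the 3 libraries.

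Most cells held RNA of the interleukins, while each chemokine was found in a minority of cells once these were thinned to 6500 UMIs. An IL1B UMI was found in 88.9% of DP, 94.4% of SP and 86.5% of parental cells, and an IL1A UMI in 87.5% of DP, 91.6% of SP and 84.3% of parental cells. After thinning to 6500 UMIs per cell the shares were 59.4% in DP, 68.6% in SP and 60.8% in parental cells for IL1B and 60% in DP, 66.3% in SP and 58.8% in parental cells for IL1A. CXCL2 was seen in 50% of DP, 61.2% of SP and 49.5% of parental cells, and after thinning in 26.7% of DP, 32.8% of SP and 28.5% of parental cells. CXCL1 followed with 30.2% in DP, 40.9% in SP and 29.97% in parental cells, or 16.1% in DP, 24.2% in SP and 15.9% in parental cells after thinning. SP cells had the largest thinned share for CXCL1, and the exact binomial interval of 21.9 to 26.7% lay above those of DP cells (14.5 to 17.8%) and parental cells (14.5 to 17.5%).

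The remaining genes were found in fewer cells still. CXCL8 had a UMI in 28.2% of DP, 33.9% of SP and 30.1% of parental cells, and after thinning in 12.6% of DP, 16.2% of SP and 15.4% of parental cells. The thinned shares were 12.8% in DP, 16.0% in SP and 14.5% in parental cells for CSF2, 9.79% in DP, 10.9% in SP and 9.38% in parental cells for CXCL3 and 7.58% in DP, 9.60% in SP and 8.84% in parental cells for CCL20. For CSF2, CXCL3 and CCL20 the intervals of all 3 libraries overlapped. Free RNA carried the same transcripts: the barcodes with 100 UMIs or fewer gave 62 CXCL1 UMIs in DP, 78 in SP and 58 in parental cells, which is 71.0 CPM in DP, 91.2 in SP and 77.8 in parental cells, close to the level in cells. No cell type that should lack these genes was present to set a background for single UMIs, so a cell with 1 UMI cannot be told from one that took up free RNA.

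Cells rarely held many of these genes at once. In thinned cells the median was 2 of the 9 genes in every library. None of the 9 was found in 15.2% of DP, 10.9% of SP and 14.2% of parental cells, and 5 or more in 7.27% of DP, 11.5% of SP and 7.93% of parental cells. Without thinning the median was 3 genes in DP, 4 in SP and 3 in parental cells. All 9 genes then had a UMI in 1 DP, 2 SP and 0 parental cells. CXCL5 had a UMI in only 1 DP, 6 SP and 2 parental cells, so this count could not exceed those numbers.

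**Figure D2:**
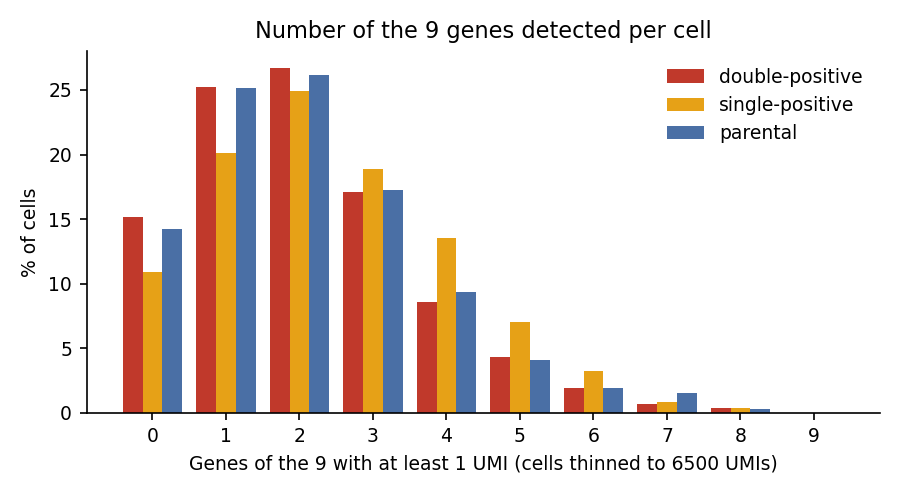
Percent of cells of each library by how many of the 9 genes had at least 1 UMI after thinning to 6500 UMIs per cell. The 3 libraries peak at 2 genes, and SP bars are lowest at 0 genes (10.9% of cells).

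The chemokines, CCL20 and CSF2 came largely from a few cells, and IL1A and IL1B did not to that degree. The 5% of cells richest in CCL20 held 84.3% of its thinned UMIs in DP, 68.8% in SP and 77.5% in parental cells, where genes within 1.5-fold of its level had a median of 41.2% in DP, 40.2% in SP and 41.6% in parental cells. For CXCL3 the shares were 78.5% in DP, 71.0% in SP and 81.8% in parental cells, against 34.3% in DP, 33.7% in SP and 34.2% in parental cells for genes of its level. CXCL8 followed with 77.7% in DP, 63.3% in SP and 73.2% in parental cells, against 30.1% in DP, 29.6% in SP and 30.1% in parental cells. Of the 1755 genes near the level of CXCL8, only 6 in DP, 5 in SP and 4 in parental cells were concentrated at least as much. Among the 2112 near that of CXCL3 the counts were 9 in DP, 7 in SP and 7 in parental cells.

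CXCL1 and CXCL2, though detected more widely, were concentrated too. Their top 5% of cells held 70.7% and 60.01% of thinned UMIs in DP, 52.1% and 45.5% in SP and 66.4% and 56.5% in parental cells. CSF2 had 67.7% in DP, 57.5% in SP and 66.6% in parental cells. IL1A had 29.5% in DP, 23.0% in SP and 29.5% in parental cells, against 16.8% in DP, 16.7% in SP and 16.8% in parental cells for genes of its level, and IL1B 26.6% in DP, 22.8% in SP and 24.4% in parental cells, against 17.2% in each library. For all 8 genes the share was lowest in SP cells. Before thinning, that order held for CXCL1, CXCL2, CXCL3, CXCL8 and IL1A, while CCL20, CSF2 and IL1B had their lowest shares in parental, DP and parental cells.

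**Figure D3:**
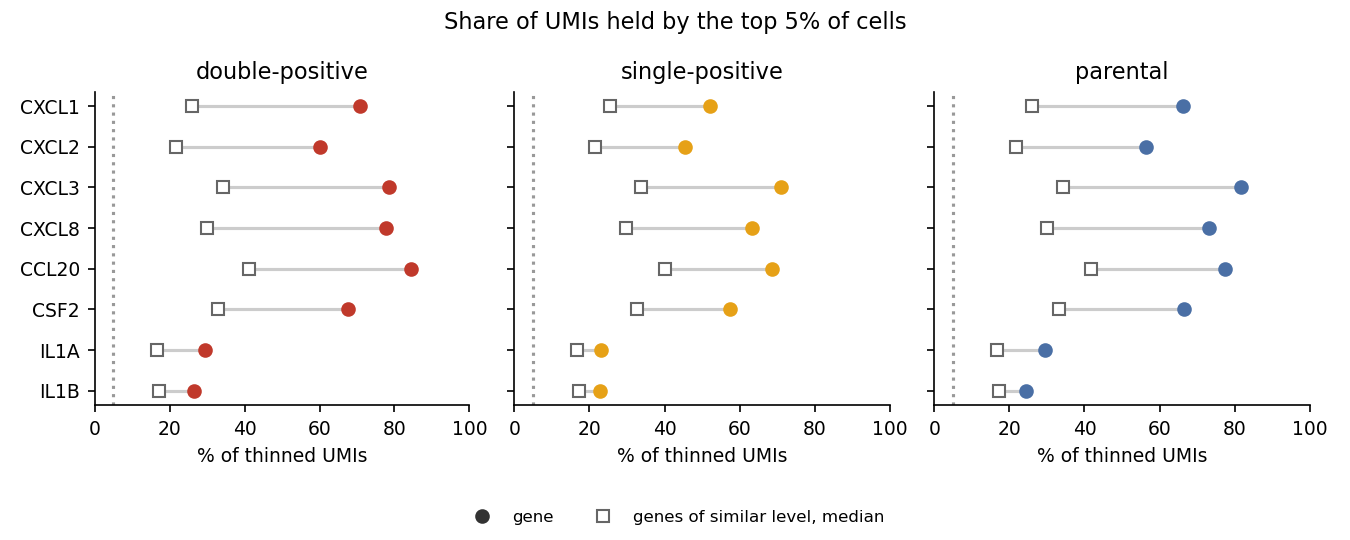
Percent of thinned UMIs of each gene held by the 5% of cells richest in it (filled circles) and the median of the same share over genes within 1.5-fold of its level (open squares); the dotted line is the 5% that even expression would give. The filled circles of the chemokines, CCL20 and CSF2 lie between 45.5 and 84.3%, those of IL1A and IL1B between 22.8 and 29.5%.

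In counts of cells, 50% of the CXCL8 UMIs came from 21 DP, 18 SP and 39 parental cells. For CXCL3 it took 17 DP, 21 SP and 20 parental cells, and for CXCL2 54 DP, 58 SP and 67 parental cells. IL1B needed 296 DP, 200 SP and 372 parental cells to reach the same share. A single cell could weigh heavily: 1 SP cell held 542 of 2693 CXCL8 UMIs (20.1%), and 1 DP cell held 259 of 2110 CXCL3 UMIs (12.3%). Counting intervals do not cover which cells happened to be drawn, so for these genes they are too narrow as an error of the population.

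In each library the 1 cell with most UMIs of the 9 genes held several chemokines at once. These cells were picked by the sum of the same genes, which favours cells high in several of them. The DP cell with most UMIs of the 9 genes held 1536 of them among 37089 (4.14%), with 292 of CXCL1, 333 of CXCL2, 259 of CXCL3, 251 of CXCL8, 153 of CCL20 and 207 of IL1A. The SP cell held 1510 among 66040 (2.29%), with 542 of CXCL8 and 414 of CXCL2, but 40 of IL1A and 1 of IL1B. The parental cell held 1047 among 59713 (1.75%), with 365 of CXCL2 and 250 of CXCL8. Each had 8 of the 9 genes and lacked CXCL5. IL1B gave fewer UMIs than IL1A in all 3 cells, with 29 in the DP, 1 in the SP and 10 in the parental cell. The library medians of IL1B were 4 UMIs per cell in DP, 6 in SP and 4 in parental cells. Mitochondrial shares of the 3 highest cells were 0.396% in the DP, 0.0409% in the SP and 0.253% in the parental cell. These were below the median of their libraries.

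The genes tended to be found in the same cells. Leaving out CXCL5, the Spearman correlation over thinned cells was positive for all 28 pairs in every library, with medians of 0.17 over 1940 DP, 0.18 over 1291 SP and 0.19 over 2409 parental cells. Points of 1 library share its preparation and free RNA, and these values are descriptions. IL1A with IL1B was the closest pair by this measure in each library, at 0.34 in DP, 0.35 in SP and 0.36 in parental cells. Cells with a UMI of both, over the number that independence would give, were 1.17 in DP, 1.11 in SP and 1.16 in parental cells for that pair, and 2.83 in DP, 1.95 in SP and 2.45 in parental cells for CXCL1 with CXCL8. CXCL1 with CXCL8 had 0.33 in DP, 0.25 in SP and 0.30 in parental cells, CXCL1 with CXCL3 had 0.27 in DP, 0.24 in SP and 0.30 in parental cells, and CXCL3 with CXCL8 had 0.22 in DP, 0.18 in SP and 0.31 in parental cells. On average over the libraries the loosest pairs were CXCL3 with IL1B, at 0.11 in DP, 0.05 in SP and 0.10 in parental cells, and CCL20 with CSF2, at 0.07 in DP, 0.12 in SP and 0.08 in parental cells.

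CXCL8 was found in 35.6% of CXCL1-positive and 8.17% of CXCL1-negative DP cells after thinning, in 31.6% and 11.2% of SP cells, and in 37.8% and 11.2% of parental cells. IL1B was found in 69.2% of IL1A-positive and 44.6% of IL1A-negative DP cells, in 76.2% and 53.8% of SP cells, and in 70.3% and 47.3% of parental cells. The correlation of CSF2 was 0.13 in DP, 0.24 in SP and 0.19 in parental cells with CXCL1, and 0.12 in DP, 0.24 in SP and 0.22 in parental cells with CXCL8. It was 0.19 in DP, 0.19 in SP and 0.17 in parental cells with CXCL2, and 0.16 in DP, 0.19 in SP and 0.15 in parental cells with CXCL3.

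**Figure D4:**
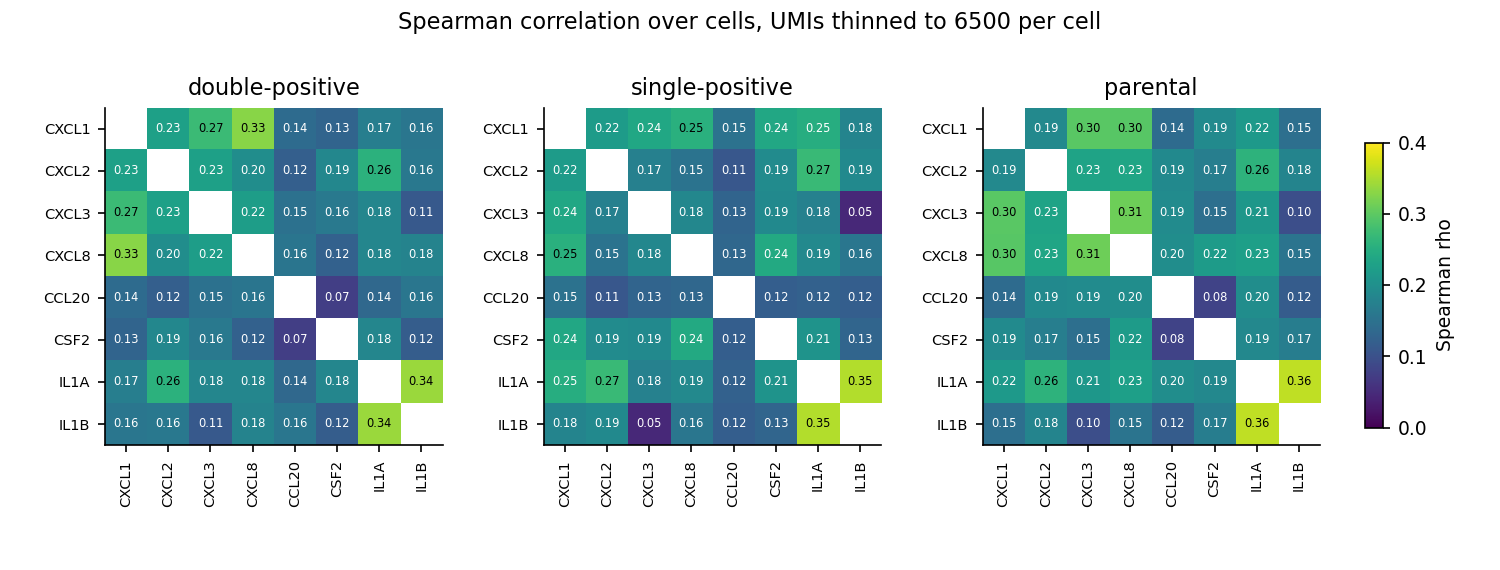
Spearman correlation between each pair of 8 genes over the cells of 1 library, on UMIs thinned to 6500 per cell; CXCL5 is left out for lack of UMIs. The pair IL1A and IL1B is brightest in each library (0.34 to 0.36).

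Cells that were rich in the other 8 genes held a large part of each chemokine. In the 5% of cells with most thinned UMIs of the other 8 genes lay 58.7% of CXCL8 UMIs in DP, 39.7% in SP and 55.7% in parental cells. The shares were 55.2% in DP, 42.7% in SP and 56.4% in parental cells for CXCL3, 40.6% in DP, 24.1% in SP and 39.7% in parental cells for CXCL2, and 41.4% in DP, 33.9% in SP and 34.8% in parental cells for CCL20. CXCL1 followed with 34.5% in DP, 24.3% in SP and 30.6% in parental cells and CSF2 with 23.5% in DP, 27.5% in SP and 28.3% in parental cells. IL1A had 19.9% in DP, 14.0% in SP and 20.6% in parental cells and IL1B 15.1% in DP, 11.7% in SP and 13.3% in parental cells, where the median over all genes was 4.79 to 4.90%. CSF2 was the only one of the 8 with its lowest share in DP cells.

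High chemokine and high interleukin cells overlapped in part. Of the 97 DP cells highest in CXCL1, CXCL2, CXCL3 and CXCL8, 34 were also among the 97 highest in IL1A and IL1B (35.1%). The overlap was 21 of 65 SP cells (32.3%) and 49 of 120 parental cells (40.8%). For these overlaps cells were ranked by CPM without thinning. Each set made up 5% of DP, 5.03% of SP and 4.98% of parental cells, the mean overlap of unrelated sets. CSF2 and CCL20 overlapped least in DP and parental cells, with 14 of 97 and 21 of 120. In SP cells the least was 7 of 65 (10.8%, 4.44 to 20.9%), between CSF2 and the interleukins. The cells highest in the summed genes, described next, were ranked by thinned UMIs instead. Cells highest in the summed genes had medians of 33263 UMIs in DP, 44646 in SP and 25375 in parental cells, against 29793 in DP, 37815 in SP and 23100 in parental cells in the rest of each library. Their median mitochondrial shares were 1.73% in DP, 1.18% in SP and 0.761% in parental cells, against 2.08% in DP, 1.30% in SP and 0.962% in parental cells. Droplets above 2 times the median UMIs, where doublets would be sought, made up 2.06% of these cells in DP, 6.15% in SP and 12.5% in parental cells, against 2.32% of all DP, 5.81% of all SP and 8.84% of all parental cells. The part of doublets in the high cells was not tested.

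The first comparison asks whether cells with both colours differ in these genes from cells of the same suspension culture with one. Genes averaging at least 10 CPM were called apart where their log2 ratio lay past a threshold of 0.32 in either direction. None of the 8 such genes of the 9 was apart between DP and SP cells, where 1.35% of 7687 genes were past the threshold as higher and 2.68% as lower. CXCL2 came nearest, with a log2 ratio of 0.31 (0.26 to 0.36, exact conditional binomial interval), followed by CSF2 with 0.27 (0.19 to 0.36). Ratios were -0.23 (-0.27 to -0.20) for IL1B, -0.18 (-0.24 to -0.12) for CXCL1 and -0.17 (-0.26 to -0.08) for CXCL3. For IL1A (-0.05), CXCL8 (-0.01) and CCL20 (0.04) the libraries were within 0.05 of each other on the log2 scale. The median of the 8 genes was -0.03, and that of all genes -0.02. In the 670 DP and 187 SP cells of 25000 to 35000 UMIs, CXCL2, CXCL3, CXCL8, CCL20, CSF2 and IL1A were past the threshold as higher in DP cells, with CXCL3 at 1.16 and CXCL8 at 1.04, where 12.9% of all genes were past it in either direction. Without the 5% of cells highest in the 9 genes CXCL1 stood at -0.58.

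SP cells stood apart from parental cells in 4 genes. CXCL1 was higher, with 88.3 CPM in SP against 66.5 CPM in parental cells and a log2 ratio of 0.41 (0.35 to 0.47). CSF2 was lower with -0.48 (-0.57 to -0.40), CXCL8 with -0.39 (-0.46 to -0.32) and CXCL2 with -0.35 (-0.40 to -0.30). Of all 7687 genes, 3.86% were past the threshold as higher and 1.38% as lower. IL1B had a ratio of 0.20 (0.17 to 0.24), CXCL3 -0.15 (-0.23 to -0.06), CCL20 -0.10 (-0.21 to 0.00) and IL1A 0.04 (0.00 to 0.07). CXCL1 and CXCL2, both neutrophil attractants, lay on opposite sides. Of the 60-base words of their whole annotated transcripts, 2.70% for CXCL1 and 5.69% for CXCL2 are shared with a relative. The share was not counted for the 5′ ends alone, which the libraries mark. The part of such shared stretches in these ratios was not tested. None of the 8 was 1.5-fold apart. CXCL2 stood at -0.04 without the 5% of cells highest in the 9 genes, CSF2 at -0.08 in cells with at least 0.5% mitochondrial UMIs, and CXCL8 at -0.31 without cells above 2 times the median UMIs.

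DP cells differed from parental cells past the threshold in CXCL8 alone, which was lower at 53.0 CPM in DP against 70.0 CPM in parental cells, a log2 ratio of -0.40 (-0.47 to -0.33). Genes past it as lower made up 1.65% of all, and as higher 1.44%. CXCL3 was just short of the threshold with -0.32 (-0.40 to -0.24). CXCL1 had 0.23 (0.17 to 0.29), CSF2 -0.21 (-0.29 to -0.14), CCL20 -0.06, CXCL2 -0.04, IL1B -0.03 and IL1A -0.01. CXCL8 was short of the threshold at -0.27 in cells with at least 0.5% mitochondrial UMIs, at -0.21 in cells of 25000 to 35000 UMIs and at -0.30 without cells above 2 times the median UMIs. This comparison and the one of SP with parental cells share the parental library.

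**Figure D5:**
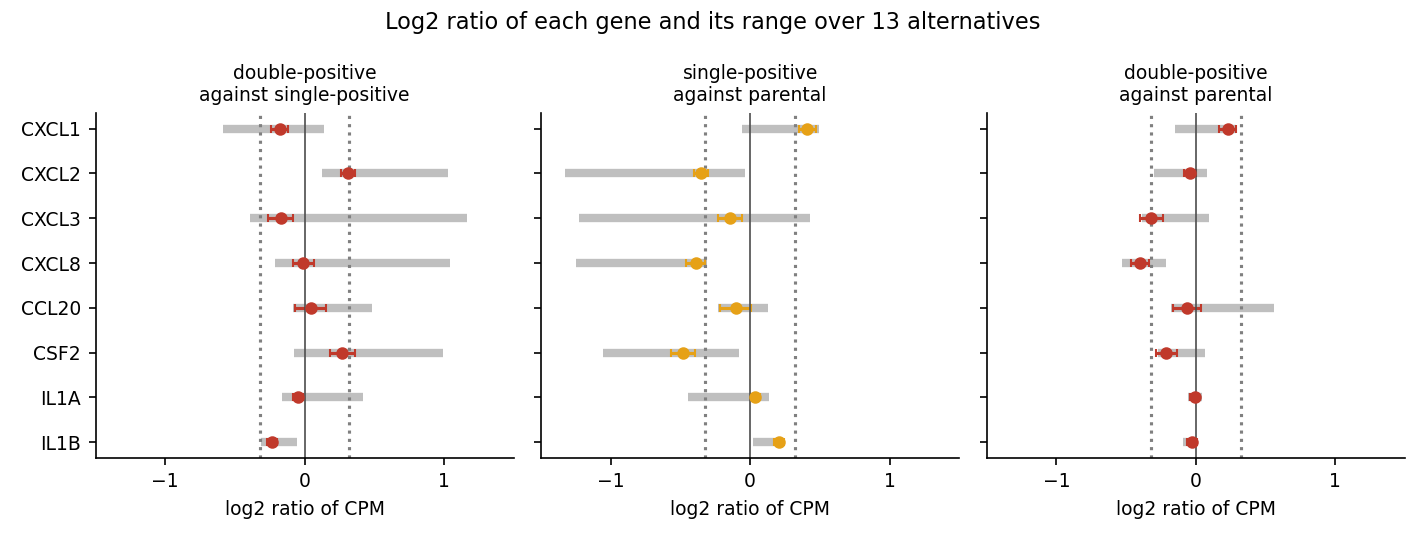
Log2 ratio of CPM of 8 genes in the 3 comparisons, with 95% counting intervals (bars with caps), the range over 13 other ways of processing (grey bars) and the thresholds of 0.32 in size (dotted lines). CXCL8 is at -0.40 in DP against parental cells with its grey bar below 0, while 6 of the 8 grey bars cross 0 in DP against SP cells.

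Depth per cell moved with these ratios. In cells with 25000 to under 35000 UMIs, SP cells had 60.6 CPM of CXCL2, against 152 CPM in parental cells, a log2 ratio of -1.33 (-1.496 to -1.17). CXCL1 had -0.07 (-0.23 to 0.10) in that range, so its excess in SP cells was not seen there. It was 0.34 (0.22 to 0.46) from 35000 to under 50000 UMIs and 0.39 (0.27 to 0.51) at 50000 or more. Under 15000 UMIs CXCL1 had 0.14 (-0.14 to 0.41), and from 15000 to under 25000 it had -0.04 (-0.33 to 0.23). CXCL8 had -1.26 and CSF2 -1.06 in cells with 25000 to under 35000 UMIs. In cells under 15000 UMIs the order turned: SP cells had 65.1 CPM of CSF2, against 32.1 CPM in parental cells, and 57.9 CPM of CXCL8, against 38.0 CPM in parental cells. The 251 SP cells of that range had a median mitochondrial share of 3.34%, against 1.86% in 390 parental cells. Over the 5 ranges of depth, CXCL8 and CSF2 were lower in SP than in parental cells in 4, and CXCL8 was lower in DP than in parental cells in all 5. In cells under 15000 UMIs the interval of that ratio held 0 (-0.58 to 0.32). CXCL2 in DP against SP cells had -0.73 between 15000 and 25000 UMIs and 1.03 in the next range. The part that depth, mitochondrial share and a few high cells have in the differences was not tested.

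Over the cells of a library, the summed thinned UMIs of the 9 genes went little with depth or cycle genes. Their Spearman correlation with total UMIs was 0.02 in DP, -0.12 in SP and 0.02 in parental cells. With the mitochondrial share it was -0.05 in DP, 0.13 in SP and -0.02 in parental cells, with 15 S phase genes -0.07 in DP, -0.06 in SP and -0.07 in parental cells, and with 15 G2M genes -0.11 in DP, 0.00 in SP and -0.09 in parental cells. The S phase genes themselves differed between libraries, with 11 of 15 past the threshold as higher in SP than in parental cells.

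Apart from IL1RAP, receptors for these ligands were low or almost missing in the carcinoma cells. CXCR2 had 2 UMIs in DP, 3 in SP and 2 in parental cells, CXCR1 had 1 in DP, 0 in SP and 1 in parental cells, and CCR6 and CSF2RB had 0 in all. The IL1 receptor chain IL1R1 was present at 0.932 CPM in 52 DP cells, 1.41 CPM in 44 SP cells and 1.254 CPM in 72 parental cells, and its partner IL1RAP at 24.2 CPM in DP, 23.1 in SP and 20.2 in parental cells. The decoy receptor IL1R2 reached 2.01 CPM in DP, 2.10 in SP and 2.34 in parental cells. Of 9 receptors only IL1RAP was above 10 CPM, and it was not past the threshold in any comparison.

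Among other IL1 family genes, the antagonist IL1RN was past the threshold in 2 comparisons, with 95.4 CPM in DP, 72.9 in SP and 91.5 in parental cells. Its log2 ratio was 0.39 (0.33 to 0.45) in DP against SP cells and -0.33 (-0.39 to -0.27) in SP against parental cells. IL33, a nuclear alarmin, was 0.40 (0.24 to 0.57) in DP against parental cells, at 11.9 against 8.97 CPM. IL18, which caspase-1 also matures, was the most abundant at 152 CPM in DP, 136 in SP and 141 in parental cells, and SIGIRR, an inhibitory receptor, had 30.6 CPM in DP, 31.9 in SP and 35.4 in parental cells. For the release of IL1, CASP1 had 58.3 CPM in DP, 52.7 in SP and 58.7 in parental cells, and the inflammasome adaptor PYCARD was -0.34 (-0.41 to -0.26) in DP against parental cells. NLRP3, the sensor that classically activates caspase-1, had 0.196 CPM in DP, 0.159 in SP and 0.188 in parental cells. No other of the 8 release genes above 10 CPM was past the threshold, and S100A13, CAPN2 and CAPN1 were the highest of them.

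Most NF-kB subunits and feedback genes were not past the threshold between libraries. Of 18 above 10 CPM, none was past it in DP against SP cells, where 1.35% of all 7687 genes were higher and 2.68% lower. In SP against parental cells BIRC3 (-0.61, -0.76 to -0.45) and NFKBIA (-0.33, -0.37 to -0.29), the inhibitor that NF-kB itself induces, were lower. In DP against parental cells BIRC3 was lower (-0.63, -0.78 to -0.48). Of all genes, 1.38% were past the threshold as lower in SP against parental cells and 1.65% in DP against parental cells. The list median was 0.01 in DP against SP, 0.05 in SP against parental and 0.05 in DP against parental cells, where all genes had medians of -0.02 in the first, 0.05 in the next and 0.03 in the last. IER3, an early response gene, was the highest of the list at 413 CPM in DP, 429.5 in SP and 383 in parental cells, followed by NFKBIA and TNIP1. None of the 7 genes of cytokine mRNA decay, led by ZFP36L1, ZFP36, which binds AU-rich elements, and ELAVL1, was past the threshold in any comparison.

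Within a library, several NF-kB feedback genes took a large share of their UMIs from the cells highest in the summed 9 genes, a sum in which IL1A and IL1B hold more UMIs than all the others together. The cells highest in the 9 genes, 5% of each library, held 20.8% of the thinned UMIs of TNFAIP3, which restrains NF-kB, in DP, 11.9% in SP and 30.9% in parental cells. For NFKBIA the shares were 18.6% in DP, 15.9% in SP and 24.0% in parental cells, and for TRAF1 30.1% in DP, 27.3% in SP and 27.0% in parental cells. The median of the 19 genes of the list was 11.0% in DP, 8.09% in SP and 13.1% in parental cells. For 15 G2M genes it was 3.58% in DP, 3.601% in SP and 3.61% in parental cells, and for the release genes 5.80% in DP, 4.34% in SP and 5.12% in parental cells. IL36G, an IL1 family cytokine of epithelia, was low at 4.15 CPM in DP, 3.27 in SP and 3.73 in parental cells. The highest cells held 51.0% of its thinned UMIs in DP, 36.1% in SP and 49.3% in parental cells. These shares rest on 26 thinned UMIs in DP, 13 in SP and 33 in parental cells. The most thinned IL36G UMIs in any 1 cell of the library were 11 in DP, 17 in SP and 8 in parental cells.

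Other secreted factors had mixed ratios. The epidermal growth factor family members AREG and EREG, whose genes lie near the chemokines on chromosome 4, stood at 767 and 225 CPM in DP, 656 and 204 CPM in SP and 805 and 218 CPM in parental cells, and neither they nor BTC were past the threshold, though BTC was close to it at -0.32 in SP against parental cells. LIF, an interleukin 6 family cytokine, was higher in DP cells, with 0.36 (0.23 to 0.48) against SP and 0.34 (0.22 to 0.45) against parental cells. IL32 was lower in DP cells, with -0.39 against SP and -0.45 against parental cells. TGFA, VEGFA and CXCL16 were not past the threshold. The T cell chemokine CXCL10 was lower than in parental cells, with -0.79 (-0.87 to -0.71) in DP and -0.64 (-0.72 to -0.55) in SP cells. One SP cell held 689 of the 1701 CXCL10 UMIs of its library, which the interval does not cover. Without the highest cell of each library, a step added after seeing the data, CXCL10 stood at -0.78 in DP and -1.30 in SP against parental cells, and at 0.52 in DP against SP cells, where it was -0.15 with all cells. CXCL11 had -0.40 in DP and -0.78 in SP cells against parental cells, and 0.38 in DP against SP cells. CCL5 was lower in DP cells, with -0.50 against SP and -0.40 against parental cells. It rested on few cells, with 649 UMIs in 63 DP, 758 UMIs in 26 SP and 895 UMIs in 103 parental cells. Over cells, CXCL10 had correlations with the summed 9 genes of 0.04 in DP, -0.01 in SP and 0.00 in parental cells.

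Of 8 acute phase and other IL1 targets above 10 CPM, LCN2, an iron-binding protein of inflamed epithelia, was lower in DP than in parental cells at -0.42 (-0.44 to -0.40), with 556 against 744 CPM. MMP1, a collagenase, was lower in DP cells with -0.44 against SP and -0.36 against parental cells. S100A9 was 0.34 in DP against SP cells, and SOD2 -0.32 in SP against parental cells. PTGS2, the inducible cyclooxygenase, had 242 CPM in DP, 210 in SP and 212 in parental cells and was not past the threshold. The list median was -0.01 in DP against SP, -0.12 in SP against parental and -0.21 in DP against parental cells.

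The level of 5486 other genes at 20 CPM or more was set against the summed 9 genes over the cells of each library. Ranked by the lowest correlation of the 3 libraries, HBEGF, an EGF receptor ligand, came first with 0.40 in DP, 0.36 in SP and 0.38 in parental cells. PLAU, the urokinase, had 0.29 in DP, 0.31 in SP and 0.30 in parental cells, INHBA, the activin A subunit, 0.29 in DP, 0.31 in SP and 0.28 in parental cells, and PTGS2 0.26 in DP, 0.33 in SP and 0.27 in parental cells. NFKBIA, GADD45A, TNFAIP3, SFN and IER3 were also among the first 10, with lowest values between 0.22 and 0.25. The value that 99% of genes stayed under was 0.14 to 0.15. PLAU was first for CXCL1, CXCL3, CXCL8 and CSF2 taken alone, HBEGF for CXCL2, IL1A and IL1B, and INHBA for CCL20. Next were HBEGF and INHBA for CXCL1, IER3 and CYR61 for CXCL2, INHBA and HBEGF for CXCL3, PTGS2 and TNFAIP3 for CXCL8, and HBEGF and BCL3 for CCL20. HBEGF was also among the nearest genes of CSF2. For IL1A the next were the metallothionein MT2A and INHBA, and for IL1B SFN and AREG. In level, HBEGF stood at 415 CPM in DP, 403 in SP and 377 in parental cells, PLAU at 348 CPM in DP, 262 in SP and 287 in parental cells and INHBA at 77.6 CPM in DP, 92.2 in SP and 85.7 in parental cells.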

How the data were processed

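Raw UMI counts per gene and barcode were deposited by the authors for 3 libraries, all 737280 barcodes included. Cell Ranger 4.0.0 and Seurat 4.0.6 are named in the submitters' processing notes, while the annotation release was not given in the sources used here. Cells were barcodes with at least 6500 UMIs, with no further filter on cells, no doublet caller and no droplet removed. For each library the counts of its cells were added up and scaled to 1000000 UMIs (CPM). Ratios were taken for genes averaging at least 10 CPM, with a threshold of 0.32 in size on the log2 scale. Intervals of 95% were exact Poisson for levels, Clopper-Pearson for shares and conditional binomial for ratios, and cover counting error only, since cells of 1 library are not replicates. For comparisons across depths each cell was thinned to 6500 UMIs. Free RNA was read from barcodes of 100 UMIs or fewer. Genes besides the 9 were named where their list held them and they were past the threshold or highest, or where their correlation with the 9 ranked first. One gene that this rule names is not reported here. The 9 genes and the lists were chosen with earlier results of these data known. The alternatives covered the UMI minimum, mitochondrial share, thinning, a depth range, scaling, free RNA, high cells and the fold threshold, and 2 of them were chosen after seeing the data. The scripts were checked on simulated counts. Feature IDs were matched to GENCODE 29 and promoters taken from RefSeq. Software was biopython 1.88, matplotlib 3.10.9, scipy 1.17.1, Python 3.11.15, pandas 2.3.3 and numpy 2.4.6.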

Additional observations from a re-analysis of the deposited data

How the results depend on the processing

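Of 312 log2 ratios (24 ratios under 13 alternatives, 2 of them chosen after seeing the data), 212 moved by less than their counting interval, 99 moved further and 1, among those past the threshold as reported, changed sign: CXCL1 in SP against parental cells was -0.062 in cells of 25000 to 35000 UMIs, both ends included. With the smaller ratios counted too, 16 of the 24 changed sign at least once, among them CXCL3 and CXCL8 in DP against SP cells, at 1.16 and 1.04 in that range. The count of genes past the threshold in DP against SP cells, 0 as reported, was 2 with at least 0.5% mitochondrial UMIs, 6 within 25000 to 35000 UMIs (all higher in DP cells, beside 12.9% of all genes), 1 with median-of-ratios scaling, 1 with free RNA subtracted, 3 without the 5% of cells highest in the 9 genes, 2 with at least 15000 UMIs and 1 without the highest cell of each gene. In SP against parental cells it was 4, and 2 after thinning, by mean CPM per cell and without cells above 2 times the median UMIs, and 0 at 1.5-fold. Within 25000 to 35000 UMIs it was 5, all lower in SP cells: CXCL2 (-1.33), CXCL3 (-1.23), CXCL8 (-1.25), CSF2 (-1.06) and IL1A (-0.45). In DP against parental cells it was 1, and 0 with at least 0.5% mitochondrial UMIs, without cells above 2 times the median and at 1.5-fold, and 2 with median-of-ratios scaling, free RNA subtracted, at least 15000 UMIs and without the highest cell. Within 25000 to 35000 UMIs it was again 1, but with CCL20 (0.56) in place of CXCL8 (-0.21). The share of the summed UMIs held by the top 5% of cells, 36.5% in DP, 31.6% in SP and 37.3% in parental cells, was 33.5% in DP, 29.1% in SP and 32.7% in parental cells with at least 0.5% mitochondrial UMIs, and 30.9% in SP cells of at least 10000 UMIs. After thinning it was 33.2% in DP, 23.6% in SP and 32.5% in parental cells, and with cells ranked by CPM 34.6% in DP, 30.2% in SP and 35.1% in parental cells. The cause of these moves was not tested. No paired analysis was possible because each group is 1 library and no test was made. Depth limits CXCL5, whose few UMIs allow no comparison.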

Other observations

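The genes below were picked after their values were seen. IL6, which IL1 induces in many cells, had 37 UMIs in 28 DP cells, 44 UMIs in 19 SP cells and 251 UMIs in 58 parental cells, and 97 of the parental UMIs (38.6%) came from 1 cell. Of the cells with an IL6 UMI, 8 in DP, 3 in SP and 25 in parental cells were among the 5% highest in the 9 genes. TNF had 55 UMIs in 18 DP cells, 31 UMIs in 8 SP cells and 75 UMIs in 24 parental cells, and 7, 5 and 14 of those DP, SP and parental cells were among the highest. After thinning, 14 of 16 TNF UMIs in DP, 2 of 3 in SP and 12 of 12 in parental cells lay there.

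PI3, an antiprotease of epithelia, had 22.9% of its thinned UMIs in the highest cells in DP, 2.64% in SP and 4.41% in parental cells, and 1 DP cell gave 210 of the 240 thinned PI3 UMIs behind the DP share. S100A8 had 26.2% in DP, 3.45% in SP and 3.03% in parental cells. The DP share rests on 37 thinned UMIs, and 7 of the 97 highest DP cells had an S100A8 UMI before thinning. Another DP cell, not among the highest, held 191 of the 594 S100A8 UMIs of its library (32.2%). CXCL10 had 21.9% in DP, 3.57% in SP and 11.2% in parental cells, and 689 of the 1701 CXCL10 UMIs of the SP library (40.5%) came from 1 cell, which was not among the highest in the 9 genes.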
